A study of Mus musculus with 3 samples.

Results

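Regions bound by estrogen receptor α (ERα) in both replicates were searched for a single extended nuclear receptor half-site in the absence of an estrogen response element (ERE). A region was the interval covered by peaks of both replicates, with at least 1 bp of overlap, on chromosomes 1 to 19 and X. It was called a half-site region when the 400 bp around its midpoint held the 8-bp SF1 consensus CAAGGTCA on either strand, no 13-bp ERE (GGTCANNNTGACC) with 1 mismatch or fewer, and no exact match to the 7-bp AP1 consensus. This rule gave 291 half-site regions of 6243 shared regions, or 4.66%. The other shared regions comprised 1942 ERE regions, 742 AP1 regions without an ERE and 3268 unmarked regions with none of the motifs. The motif match alone defines the group, and no binding of SF1 or of a related receptor was measured.

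Both ERα ChIP-seq samples came from mammary glands of wild-type BALB/c females. Their ovaries were removed at 6 weeks, and after 10 days of rest they received 100 ng of 17β-estradiol and were killed 2 h later. ChIP-seq sequences the DNA that an antibody pulls down together with its protein, here sc-542 and ERα. Each replicate was a pool of glands from several mice, and 1 input library, made from chromatin that saw no antibody, served both. The whole gland holds luminal, basal, stromal and fat cells, so the cell type that carried a bound region was not measured. No ChIP-seq library from vehicle-treated mice was available, so the change of binding with estradiol was not measured by sequencing.

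ERα binds DNA mainly as a dimer on the ERE, a palindrome of paired arms with a short spacer. Other nuclear receptors, among them SF1 (Nr5a1), LRH-1 (Nr5a2) and the estrogen-related receptors (Esrra, Esrrb and Esrrg), bind as monomers to a single AGGTCA hexamer with further bases on its 5′ side, called an extended half-site. The last bases of this element, GGTCA, are identical to an arm of the ERE. Orphan receptors that read extended half-sites are known regulators of steroid synthesis and of oxidative metabolism.

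The sequences below are from the mm9 assembly, 5′ to 3′ on the strand that carries the half-site, with the half-site in capitals. They belong to the half-site regions with the highest scores, ranked by the lower of the scores in both replicates. That the sequence beside the half-site does not complete an ERE follows from the rule.
Adamts2 intron (chr11:50486459-50486466, minus strand): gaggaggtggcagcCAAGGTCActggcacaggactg
Intergenic, toward Zmiz1 (chr14:26165772-26165779, minus strand): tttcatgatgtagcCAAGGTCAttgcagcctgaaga
Lrp5 intron (chr19:3654231-3654238, plus strand): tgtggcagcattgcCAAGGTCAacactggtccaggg
4930533K18Rik intron (chr10:70366834-70366841, plus strand): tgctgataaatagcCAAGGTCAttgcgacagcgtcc
Kcnab1 intron (chr3:65178809-65178816, plus strand): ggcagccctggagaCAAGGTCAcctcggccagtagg
Intergenic, toward Kcns3 (chr12:10936919-10936926, plus strand): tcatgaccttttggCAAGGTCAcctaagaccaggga
Pappa2 intron (chr1:160705481-160705488, plus strand): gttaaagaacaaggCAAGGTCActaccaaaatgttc

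The GGTCA of a half-site can be laid over the left arm of the ERE, and the 5 bases that start 3 bases further on are then compared with the right arm. In the next set the bases that match the ERE are in capitals. These regions carried the half-site next to an arm with 2 mismatches, the closest approach to an ERE that the rule permits. Those at Rap1gap, Agt, Stat4 and Pgr were chosen after their values were seen.
4930533K18Rik intron: GGTCAttgcGACa
Kcnab1 intron: GGTCAcctcGgCC
Tnr intron (chr1:161831313-161831320, minus strand): GGTCAagacaACC
Rap1gap intron (chr4:137253243-137253250, minus strand): GGTCAccgTctCC
Agt intron (chr8:127091269-127091276, plus strand): GGTCAcccTGgaC
Stat4 intron (chr1:52053755-52053762, minus strand): GGTCAggtTacCC
Intergenic, upstream of Pgr (chr9:8729429-8729436, minus strand): GGTCAtgaTaAaC

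The score of a peak is -10 times the log10 of its p-value against the input, so that the calling threshold of 1e-08 stands at a score of 80. Deeper sequencing raises it as stronger binding does, and the scores were not adjusted for depth. In replicate 1 their scores ran from 80.8 to 2677 with a median of 210.1 (quartiles 149 and 356), and in replicate 2 from 80.05 to 1460.05 with a median of 155 (quartiles 109 and 266). Replicate 1 gave the higher score for 238 of the 291 regions, 81.8%, and for 80.2% of all shared regions. Divided by the score in replicate 2, it had a median of 1.35 with quartiles of 1.09 and 1.70. Across the half-site regions, the log10 scores of the replicates had a Pearson's r of 0.860 and the scores a Spearman's rho of 0.765. These describe regions that share a pair of libraries and are not independent samples.

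**Figure D1:**
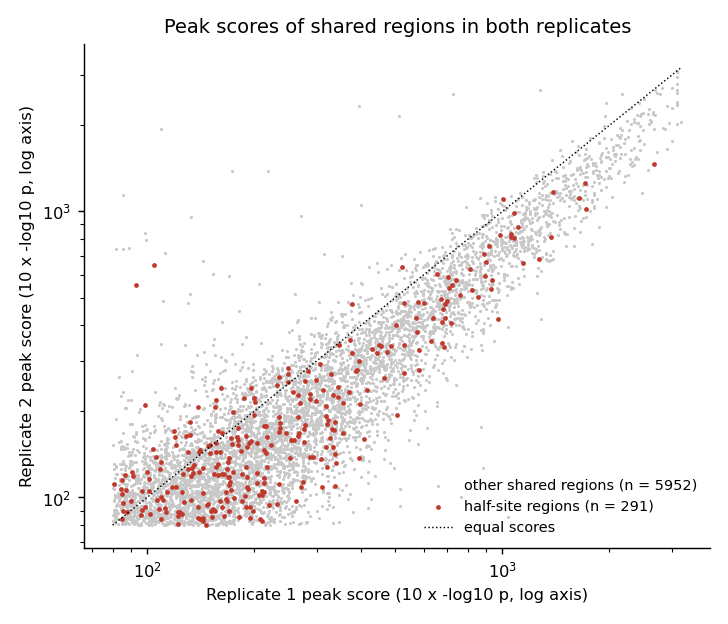
Peak scores (10 times the negative log10 p-value) of the 6243 shared regions in replicate 1 (x axis) and replicate 2 (y axis), both on log axes. Red points are the 291 half-site regions and grey points the 5952 others. Most points lie under the dotted line of equal scores, and the half-site regions spread along the same band as the others.

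The strongest half-site region, chr11:50486064-50486830, lay in an intron of Adamts2, which encodes a protease that trims procollagen. It scored 2677 in replicate 1, rank 34 of 9607 peaks, and 1460.05 in replicate 2, rank 132 of 6819. Its half-site was 16 bp from the midpoint and its best ERE-like sequence had 3 mismatches. The region at chr14:26165410-26166099 was intergenic and lay 112916 bp upstream of the nearest start site of a protein-coding gene, that of Zmiz1, a transcriptional coregulator, with scores of 1713 and 1253. A further half-site region in an intron of Zmiz1 (chr14:26334146-26334874), chosen after its values were seen, scored 937 and 576. In Lrp5, a coreceptor for Wnt ligands, an intronic region (chr19:3653936-3654569) scored 1385 and 1169.53, with its half-site 18 bp from the midpoint. An intronic region of Pappa2, a protease that cleaves insulin-like growth factor binding proteins (chr1:160705140-160705836), scored 1109 and 882 and had its half-site 3 bp from the midpoint.

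The other regions of the top 10 were less uniform in the place of the half-site. Both the region in an intron of 4930533K18Rik (chr10:70366563-70367199, scores 1638 and 1117) and that in an intron of Kcnab1 (chr3:65178472-65179536, scores 1716 and 1023) had a second arm with 2 mismatches. In the latter, whose nearest start site was that of Ssr3, the half-site was 191 bp from the midpoint, close to the edge of the window. The region at chr12:10936619-10937239 was intergenic and the only one of the 10 with a higher score in replicate 2 (1105) than in replicate 1 (1001). Maml2, a coactivator of Notch signalling, had an intergenic region 32635 bp upstream of its start site (chr9:13391286-13392311, scores 1079 and 986). The region 12139 bp upstream of Prelp, which encodes an extracellular matrix protein (chr1:135829766-135830494, scores 1059.55 and 837), held 4 further AGGTCA hexamers. The last region, in an intron of Tnr (chr1:161830856-161831709), scored 986 and 825.

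At the other end of the list, the regions with the lowest lower score sat at the calling threshold in 1 replicate. The region at chr6:91478049-91478522, 12245 bp downstream of a start site of Lsm3, scored 147 in replicate 1 and 80.05 in replicate 2. That at chr3:65720768-65721180, intergenic and nearest to Ccnl1, scored 122 and 80.8, and that at chr6:129130330-129130825, which covered sequence 55 bp upstream of the start site of Clec2d, scored 80.8 and 112. By the ratio of the scores, the largest disagreement between replicates was at Slc25a39, a mitochondrial carrier. There an intronic region 178 bp downstream of the start site (chr11:102268722-102269441) scored 104 in replicate 1 and 648 in replicate 2. A region near Gm14616 (chr2:174693718-174694176) scored 92.9 and 554. These regions were singled out after their values were seen.

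Scores were compared between classes by the share of regions above the median of all shared regions, 246 in replicate 1 and 178 in replicate 2. Half-site regions scored below ERE regions in both replicates, and their difference from unmarked regions did not pass the test in either. In replicate 1, 42.3% of the half-site regions were above the median (95% interval 36.5% to 48.2%), against 44.6% of unmarked regions (two-sided Fisher's exact test, p = 0.461, adjusted p = 0.553). The difference was -2.32 percentage points, with an interval from -8.11 to 3.67. In replicate 2 the shares were 39.9% and 44.6% (exact p = 0.124, adjusted p = 0.165), and the difference of -4.69 points had an interval from -10.4 to 1.28. Among ERE regions, 63.9% were above the median in each replicate. Half-site regions differed from them by -21.6 points in replicate 1 (exact p = 4.93e-12, adjusted p = 1.97e-11) and by -23.99 points in replicate 2 (exact p = 1.43e-14, adjusted p = 8.56e-14). Of the half-site regions, 97 were above both medians and 149 above neither. With both lists restricted to peaks at 1e-20, 94 half-site regions were left and the differences from ERE regions, -7.90 and -9.76 points, no longer passed Fisher's exact test (adjusted p = 0.242 and 0.163). Against unmarked regions the differences at 1e-20 were 7.59 and 5.63 points, and with the peaks of replicate 1 alone 3.31 points. With the peaks of replicate 2 alone, its difference was -0.0741 points. With an ERE of up to 2 mismatches barred, the differences were -9.44 and -8.17 points (Fisher's exact test, adjusted p = 0.0657 and 0.109). An ERE without mismatch in the rule gave 0.886 points in replicate 1, and the 9-bp half-site 2.66. With 200 bp windows the scores were below those of unmarked regions in both replicates, by differences of -7.27 and -10.8 points (Fisher's exact test, adjusted p = 0.0442 and 0.00165).

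Recurrence between the pools was compared for half-site peaks and peaks without any of the motifs. When replicate 1 peaks were classed by the sequence around their own midpoints, 286 of 442 half-site peaks, 64.7%, overlapped a replicate 2 peak, against 59.3% of unmarked peaks (two-sided Fisher's exact test, p = 0.0266, adjusted p = 0.03995, or 0.0533 when adjusted with the other tests of recurrence). This difference of 5.39 points did not pass the exact test at a p-value of 1e-10 (2.15 points, adjusted p = 0.616), with 200 bp windows (4.035 points, 0.1496), with the 9-bp half-site (2.46 points, 0.801) or with an ERE of up to 2 mismatches barred (5.95 points, 0.145). It passed with 600 bp windows (7.28 points, 0.00275), with reciprocal 50% overlap (5.991 points, 0.0212), with only an exact ERE barred (5.55 points, 0.0101) and without the AP1 condition (5.46 points, 0.0214). It turned to -1.51 points at 1e-20 and to -1.31 points when either pyrimidine was accepted in the half-site. ERE peaks of replicate 1 recurred in 78.4% of cases. Of the 331 half-site peaks of replicate 2, 298 (90.0%) overlapped a replicate 1 peak, against 88.8% of unmarked peaks. Recurrence followed the score: of half-site peaks in replicate 1 that scored from 80 to 100, 20 of 87 recurred, of those from 100 to 200, 117 of 200, and of those at 200 and above, 149 of 155. Unmarked peaks in the same ranges recurred in 20.9%, 50% and 95.4% of cases.

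**Figure D2:**
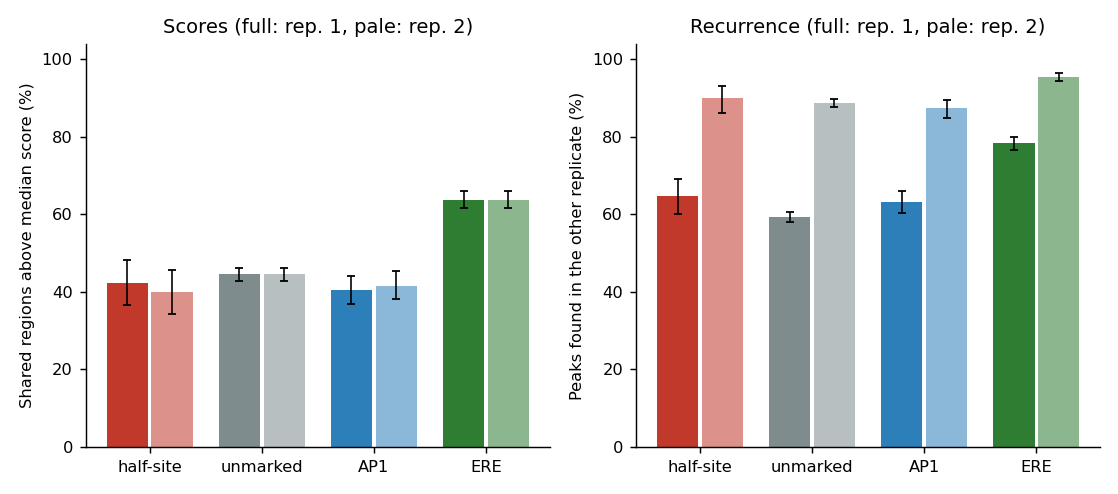
Left, share of shared regions of each class above the median score of all shared regions, in replicate 1 (full color) and replicate 2 (pale). Right, share of peaks of each class that overlapped a peak of the other replicate. Error bars are exact 95% intervals for counting error. ERE regions stand above the other classes in both panels.

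As a comparison, windows 5 kb away on either side of a shared region were searched where no peak touched them. Among windows without an ERE or AP1 match, 8.18% of those at shared regions held the half-site (95% interval 7.30% to 9.13%), and of the flanking ones 332 of 11053, 3.004% (Fisher's exact test, two-sided, p = 2.96e-35, adjusted p = 3.55e-34), a ratio of 2.72. Chromosomes 1 to 19 and X hold 145878 copies of CAAGGTCA, and 613 of these, 0.420%, lay in the windows of shared regions. Most half-site regions, 278 of 291, held a single copy, 11 held 2 and 2 held more. The largest number was in a region chosen for it after the values were seen, in an intron of Capn2, a calpain protease (chr1:184430894-184431540, scores 345 and 244), whose window held 7 copies at steps of 18, 36 or 54 bp.

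The ratio was close to that of the hexamer as a whole, which counts windows with any form and is not a mean over its forms. AGGTCA without regard to the bases before it was present in 57.6% of the same shared windows and 22.9% of the flanking windows, a ratio of 2.51. When its 16 forms by preceding dinucleotide were compared, CA, which makes the extended half-site, came in place 10 by ratio, and GC (4.601), CG (4.41) and CC (3.83) came first. The lowest ratio was that of AT, 1.48. Of windows with a hexamer, 14.2% at shared regions and 13.1% in the flanks held the half-site form (Fisher's exact test, two-sided, p = 0.279), a difference of 1.11 points with an interval from -0.885 to 3.12. With flanks at 2 kb or 20 kb, where the flanking share was 11.1% and 11.8%, the difference was 3.14 and 2.44 points (exact p = 0.00159 and 0.0136, each also the adjusted value). With replicate 2 peaks alone the shares were 14.8% and 12.6%, a difference of 2.24 points (exact p = 0.0224, raw and adjusted). The 9-bp form was less frequent among hexamer windows at shared regions, by a difference of -1.87 points (exact p = 0.00444, raw and adjusted). This comparison of hexamer windows was added after the data were seen. A window can hold more than 1 hexamer, and the number per window was not matched between shared regions and flanks. Among windows with the half-site, 45.7% at shared regions and 22.6% in the flanks held another AGGTCA. The higher shares of the half-site form at shared regions therefore cannot show a preference for it.

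**Figure D3:**
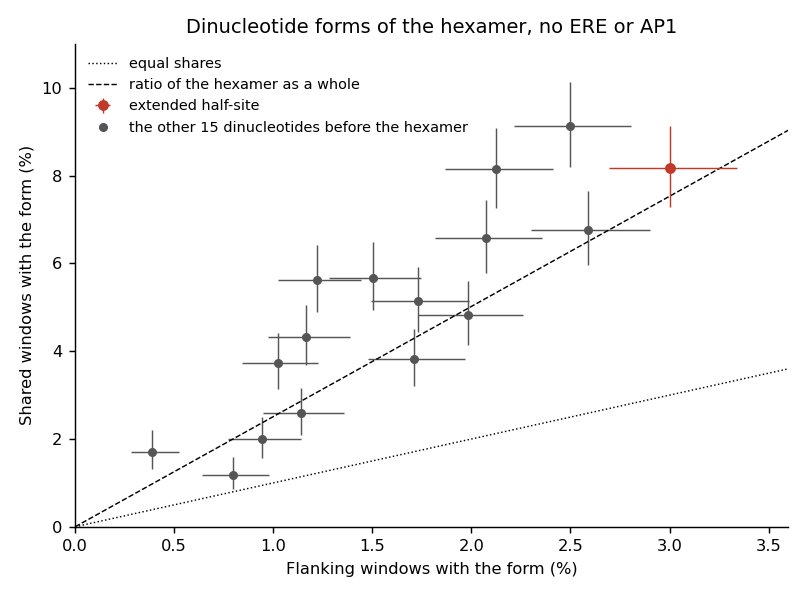
Share of flanking windows (x axis) and of shared windows (y axis), all without an ERE or AP1 match, that held each of the 16 forms of the hexamer by the dinucleotide before it. The extended half-site is in red, bars are exact 95% intervals, the dotted line marks equal shares and the dashed line the ratio of 2.51 of the hexamer as a whole. All forms lie above the line of equal shares, and the extended half-site lies near the dashed line. The dashed line counts windows with any form and is not a mean over the forms.

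Half-sites of the bound regions and of the flanks differed in their sequence surroundings. Many flanking half-sites were parts of high-copy sequence. The commonest 16-base contexts in the genome, with 4 bases on each side of the half-site in lower case, were these, found 3591, 1752 and 1129 times.
Most frequent context: agttCAAGGTCAgcct
Next context: agttCAAGGTCAtcct
Context after that: ccaaCAAGGTCAcacc
None of these contexts was found at the half-site nearest the midpoint of a half-site region, whereas they made up 9, 6 and 3 of the 332 flanking half-sites. Contexts with 20 or more copies contained 11 of 291 half-sites in bound regions (3.78%, 95% interval 1.90% to 6.66%), 77 of 332 in the flanks (23.2%, 18.8% to 28.1%) and 20.4% of all copies in the genome (two-sided Fisher's exact test of regions against flanks, p = 3.24e-13). No repeat annotation was used here, and whether reads of these sequences could be placed was not tested. With high-copy contexts left out, the half-site was present in 7.89% of shared and 2.32% of flanking windows, a ratio of 3.40, and CA came in place 8 of the 16 forms when all were treated in this way.

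The base before the half-site was T, as in the 9-bp form preferred by SF1 and the estrogen-related receptors, in 79 of 291 half-site regions (27.1%) and in 146 of 332 flanking windows (44.0%; Fisher's exact test, two-sided, p = 1.34e-05, adjusted p = 2.68e-05). Without the high-copy contexts the shares were 26.4% and 33.7% and the difference, -7.30 points, did not pass the test (exact p = 0.0727, adjusted p = 0.114). C was the commonest base before the half-site in bound regions, with 104 of 291 (35.7%), against 28.0% in the flanks and 25.2% of all copies in the genome. With high-copy contexts left out, C was at 36.4% and 32.5% (exact p = 0.364). The 9-bp form TCAAGGTCA was therefore not more frequent among the bound half-sites than among those of the flanks.

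The half-site lay closer to the midpoint in bound regions than in the flanks, as did the other forms of the hexamer. It was within 50 bp of the midpoint in 141 of 291 half-site regions (48.5%, 95% interval 42.6% to 54.4%) and in 95 of 332 flanking windows (28.6%, 23.8% to 33.8%; Fisher's exact test, two-sided, p = 4.10e-07, adjusted p = 9.84e-07). The median distance was 53 bp against 99 bp. Among the other forms in shared windows, the share within 50 bp ran from 28.6% (AT) to 57.4% (CG), and CC, TC and GC were at 55.5%, 55.9% and 53%. Centering was weaker than that of the ERE in ERE regions, 70.1% of which had their best ERE within 50 bp (exact p = 1.04e-12, adjusted p = 3.11e-12), and stronger than that of AP1 in AP1 regions, at 33.4% (exact p = 9.26e-06 raw and adjusted). With 200 bp windows, which limit the distance in both sets, the shares were 64.4% and 56.1% (Fisher's exact test, adjusted p = 0.137), and with the 9-bp half-site they were 46.99% and 32% (adjusted p = 0.0615).

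**Figure D4:**
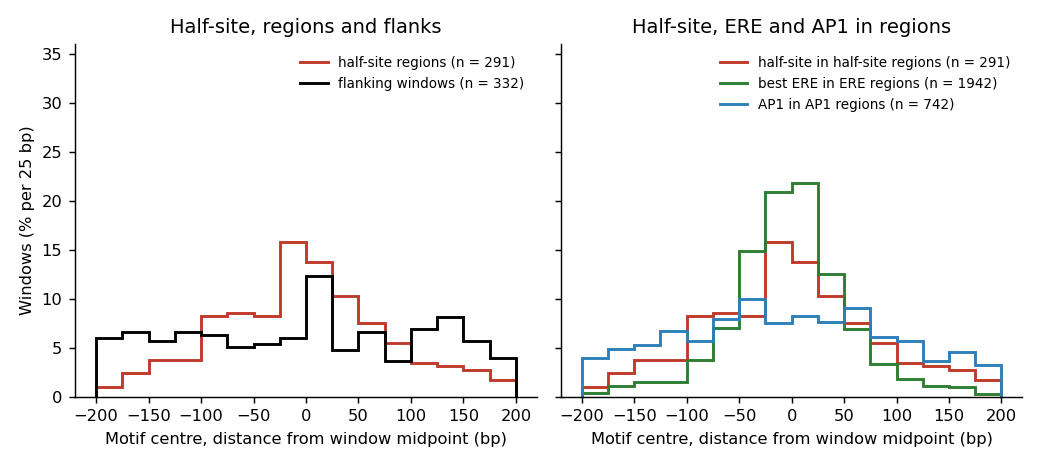
Distance of the motif from the window midpoint (x axis, bp) as percent of windows per 25 bp (y axis). Left, the half-site nearest the midpoint in half-site regions and in flanking windows. Right, the half-site in half-site regions beside the best ERE in ERE regions and the AP1 match in AP1 regions. The half-site peaks at the midpoint in bound regions, less sharply than the ERE, and AP1 is spread more evenly.

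Half-site regions often held sequence resembling an ERE, although none within 1 mismatch. An ERE with 2 mismatches was present in 170 of 291 half-site regions (58.4%, 95% interval 52.5% to 64.1%) and in 107 of 332 flanking windows with the half-site (32.2%, 27.2% to 37.5%; Fisher's exact test, two-sided, p = 5.08e-11, adjusted p = 2.29e-10). This comparison, too, was added after the data were seen. The share in unmarked regions was 51.99% (exact p = 0.0373, adjusted p = 0.0559). Unmarked regions lack CAAGGTCA, but 53.8% of their windows held AGGTCA, whose GGTCA can also supply an arm. In 71 of the 170 regions the half-site nearest the midpoint was itself an arm of the 2-mismatch ERE. In 53 the ERE-like sequence lay elsewhere and closer to the midpoint than the half-site, and in 46 it lay elsewhere and farther away. Its median distance from the midpoint was 34.5 bp, like that in unmarked regions (36.5 bp), and 100.5 bp in the flanks. With only an exact ERE barred, a 2-mismatch ERE was present in 38.4% of half-site regions and 31.8% of flanking windows. This difference of 6.62 points did not pass Fisher's exact test (adjusted p = 0.0592). The regions added by that setting count as lacking a 2-mismatch ERE by definition.

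Counted over all half-site regions, the half-site was followed by a second arm with 2 mismatches in 71 of 291 (24.4%), against 48 of 332 flanking windows (14.5%; Fisher's exact test, two-sided, p = 0.00210, adjusted p = 0.00360). The difference was 9.94 percentage points, with an interval from 3.73 to 16.2. Without the high-copy contexts the shares were 23.6% and 9.80%. With flanks at 2 kb, 18.4% of the flanking half-sites had such an arm and the difference of 5.99 points did not pass Fisher's exact test (adjusted p = 0.1599). Nor did that at a p-value of 1e-20 (13.3 points, exact adjusted p = 0.0748), with the 9-bp half-site (13.7 points, 0.0583) or with only an exact ERE barred (4.27 points, 0.182), where the definition also changes the share. When C was also accepted in place of the T of the half-site, the difference was -0.727 points. A half-site with C has 1 mismatch in its own arm, so the rule then permits a second arm with 1 mismatch. The share with 2 mismatches is thus not the same measure in that setting.

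An AGGTCA outside any copy of CAAGGTCA was present in 133 of 291 half-site regions (45.7%, 95% interval 39.9% to 51.6%) and in 75 of 332 flanking windows (22.6%, 18.2% to 27.5%; Fisher's exact test, two-sided, p = 1.18e-09, adjusted p = 3.54e-09). Unmarked regions held AGGTCA in 53.8% of windows, more than the share of half-site regions with one outside any CAAGGTCA (exact p = 0.00839, adjusted p = 0.0151). The arrangement of a second hexamer, with at most 1 mismatch, was then examined. Of 27 combinations of orientation (direct, inverted or everted) and spacing (0 to 8 bp), the inverted repeat with a spacing of 3 bp is an ERE within the limit, so the rule left none in either set. No other combination passed the test after adjustment, and 2 had an unadjusted p under 0.05. These were the direct repeat without spacing, at 13.7% of half-site regions and 22.0% of flanks (exact p = 0.00904, adjusted p = 0.244), and that with a spacing of 2 bp, at 5 of 291 against 0 of 332, which allows up to 1.10% (exact p = 0.0218, adjusted p = 0.295). Without high-copy contexts the direct repeat without spacing was at 13.6% and 10.98%.

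**Figure D5:**
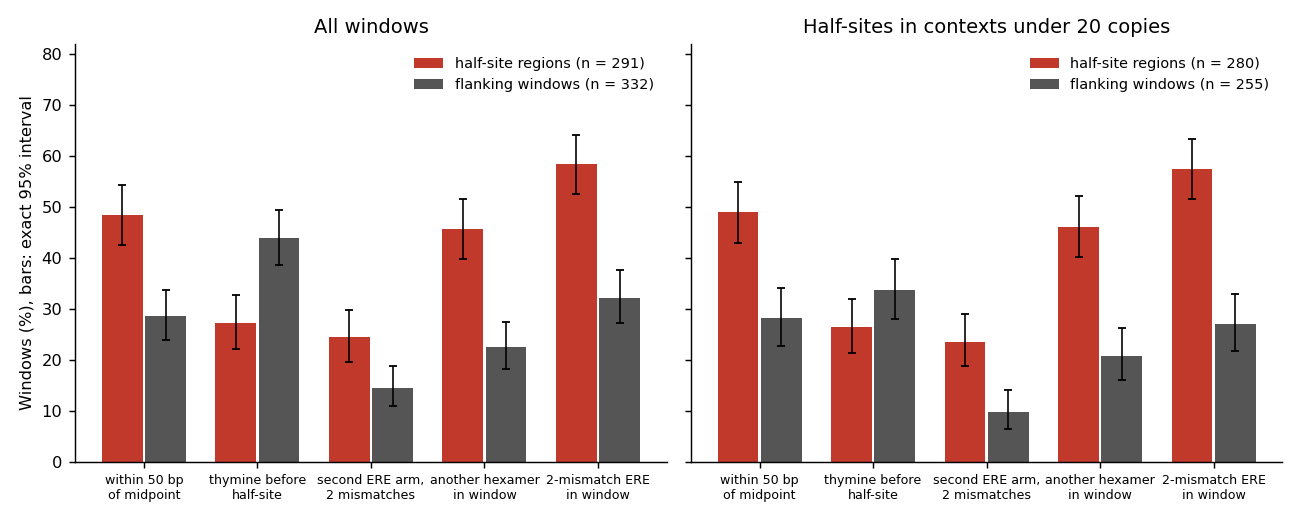
Share of half-site regions (red) and of flanking windows with the half-site (grey) that showed each feature, with exact 95% intervals for counting error. Left, all windows (291 and 332). Right, windows whose half-site has a 16-base context with fewer than 20 copies in the genome (280 and 255). The thymine before the half-site is the only feature whose difference is smaller on the right, where its share in the flanks is 33.7% in place of 44.0%.

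Consensus sequences of 15 other factors were searched for in the same windows. In 30 comparisons, each motif against unmarked regions and against flanks with the half-site, 1 passed the test after adjustment. With 200 bp windows or the 9-bp half-site, 0 passed. Under other settings more passed: 2 with only an exact ERE barred, with 1 region per cluster or with replicate 2 peaks alone. There were 3 with 600 bp windows or without the AP1 condition, 4 with flanks at 20 kb and 6 with either pyrimidine. The NF1 half-site TTGGCA was present in 114 of 291 half-site regions (39.2%) and in 62 of 332 flanking windows (18.7%; Fisher's exact test, two-sided, p = 1.57e-08, adjusted p = 4.70e-07). In unmarked regions it was at 34.6% (exact p = 0.124, adjusted p = 0.257). In 20 half-site regions and 4 flanking windows a match shared bases with the half-site. The intergenic sequence toward Kcns3 printed above, 220250 bp from the start site of that gene, is an example. With such matches left out, the shares were 35.1% and 17.8% (exact p = 1.02e-06, adjusted p = 3.07e-05). The forkhead motif of FOXA1, a pioneer factor for ERα in breast cancer cells, was at 15.5% in half-site regions, 14.4% in unmarked regions and 9.34% in the flanks (exact p = 0.602 and 0.0267, adjusted p = 0.753 and 0.160). The GATA motif was at 23.0% against 20.3% in unmarked regions and 21.1% in the flanks, with adjusted p of 0.434 and 0.734 by Fisher's exact test. The E-box CAGCTG was at 21.3% in half-site regions and 29.01% in unmarked regions (exact p = 0.00531, adjusted p = 0.0531). The median GC content was 48.25% in half-site regions, 48.5% in unmarked regions and 46.25% in the flanks with the half-site.

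Among the half-site regions themselves, scores in replicate 2 varied with ERE-like sequence, and the difference in replicate 1 did not pass the test. Regions with a 2-mismatch ERE had median scores of 251 in replicate 1 and 171 in replicate 2, against 191.5 and 130.3 for the others. The share above the median of half-site regions was 55.3% against 42.1% in replicate 1 (two-sided Fisher's exact test, p = 0.0323, adjusted p = 0.213) and 58.8% against 37.2% in replicate 2 (exact p = 3.47e-04, adjusted p = 0.00486), adjusted over 14 tests of 7 features. Unmarked regions showed medians of 243 and 180.3 with such an ERE and 201.03 and 143 without. Regions whose half-site lay within 50 bp of the midpoint had medians of 203 and 153, and the others 213 and 157. A second hexamer went with medians of 235 and 168 against 199 and 144 (adjusted p = 0.550 and 0.213 by Fisher's exact test), and T before the half-site with 223 and 161 against 206 and 155 (adjusted p = 0.747 and 0.896 by the same exact test).

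The rule excluded other regions with CAAGGTCA, 234 with an ERE and 59 with AP1 but no ERE. The half-site was itself an arm of the ERE in 142 of the former. On the excluded side of the ERE limit, the 178 regions whose best ERE had 1 mismatch had median scores of 303 and 235, and the 56 with none 334 and 237. On the included side, the 170 regions at 2 mismatches had 251 and 171 and the 112 at 3 mismatches 193 and 135. Of the half-site regions, 6 had their half-site over 180 bp from the midpoint, with median scores of 494 and 283, and 11 unmarked regions had one in the next 20 bp outside the window.

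The place of the half-site regions relative to genes was examined next. Of the 291, 162 (55.7%, 95% interval 49.8% to 61.5%) were intergenic, 122 (41.9%, 36.2% to 47.8%) were in introns, 7 were in untranslated exons and 0 in coding exons, which allows a share of up to 1.26%. Among unmarked regions 53.9% were intergenic, 42.4% intronic and 1.56% in coding exons, and of all shared regions 1.46% were in coding exons. Of the 256 half-site regions within 100 kb of a transcription start site (TSS), 20 (7.81%, 4.84% to 11.8%) were proximal, from -1 kb to +400 bp, 102 lay upstream and 134 downstream. The proximal share of unmarked regions was 8.37% (Fisher's exact test, two-sided, p = 0.906 raw and adjusted), a difference of -0.553 points with an interval from -3.45 to 3.51. With replicate 1 peaks alone, 7.77% of half-site and 11.4% of unmarked peaks were proximal (exact p = 0.0287, adjusted p = 0.0369).

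Among the proximal half-site regions, the highest lower score was at Got1, an aspartate aminotransferase, 624 bp upstream of its TSS (chr19:43599281-43600156, scores 429 and 330.3). At Dhcr7, which catalyzes the last step of cholesterol synthesis, the region midpoint was 25 bp upstream of the TSS and the half-site 1 bp from the midpoint (chr7:151008662-151009387, scores 397 and 212). Upp2, a uridine phosphorylase, had a region in an untranslated exon 35 bp downstream of its TSS (chr2:58607140-58607635, scores 213 and 112). Plcd1, a phospholipase C, had one in an intron 163 bp downstream of the TSS (chr9:119002186-119002715, scores 339 and 132). These genes were picked from those of the 20 regions after their values were seen, as examples whose function is known.

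The distance to other shared regions was also compared. Of the 291 half-site regions, 33 (11.3%, 95% interval 7.94% to 15.6%) had an ERE region within 10 kb, against 10.99% of unmarked regions (Fisher's exact test, two-sided, p = 0.845, adjusted p = 0.906), a difference of 0.355 points with an interval from -2.99 to 4.64. It turned to -0.294 points with 200 bp windows, -0.182 at 1e-10 and -0.290 with replicate 1 peaks alone. Of the ERE regions, 7.36% had another ERE region within that distance (exact p = 0.0259, adjusted p = 0.155). Any other shared region lay within 10 kb of 85 (29.2%) of the half-site regions and of 32.9% of unmarked ones (exact p = 0.215, adjusted p = 0.430). Only 8 half-site regions had another of their kind within 10 kb. They were found on every chromosome searched, from 1 of 56 shared regions on chromosome X to 28 on chromosome 1 and 24 on chromosome 7, where they made up 7.14% of the shared regions.

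A few genes carried more than 1 half-site region, and those named here were chosen after their values were seen. Adam12, a metalloprotease of the cell surface, had 3 in its introns, with the highest lower score at chr7:141223388-141224017 (258 and 234). Chd9, a chromatin remodeler, had 2 in introns, at chr8:93392973-93394128 (759 and 509) and chr8:93357815-93358278 (628 and 352).

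Genes with altered RNA after estradiol were taken as named in the study's lists, without their values. The nearest TSS within 100 kb was that of an induced gene for 8 of 291 half-site regions (2.75%), beside 4.28% of all shared regions, and that of a repressed gene for 0 of 291, beside 0.785%. The 8 regions belonged to 7 genes. Shb, an adaptor protein of receptor tyrosine kinases, had 2 intronic regions, at chr4:45496717-45497438 with scores of 889.56 and 712 and at chr4:45487580-45488102 with scores of 96.6 and 106. Chd9 had the region at chr8:93357815-93358278 named above, 5313 bp downstream of its TSS. Nfil3, a bZIP transcription factor, had an intergenic region 20828 bp upstream (chr13:53097002-53097537, scores 346 and 342). Steap3, a metalloreductase, and Wisp2, a secreted protein of the CCN family, had intronic regions, at chr1:122126507-122127087 (237 and 175) and chr2:163651530-163652107 (162 and 121). Plxna1, a semaphorin coreceptor, had one 708 bp upstream of its nearest TSS (chr6:89308167-89308670, 194 and 85.02). The last was nearest to Gm16485 (chr9:8967987-8968564, 200.54 and 222) and lay 66827 bp downstream of the nearest TSS of Pgr, the progesterone receptor gene.
The half-sites of the regions at Shb, Chd9, Nfil3 and Wisp2 are printed on the strand of the half-site. The rule itself excludes the right arm of an ERE after them.
Shb, higher-scoring region (chr4:45496981-45496988, minus strand): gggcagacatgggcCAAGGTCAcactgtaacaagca
Chd9 (chr8:93357983-93357990, plus strand): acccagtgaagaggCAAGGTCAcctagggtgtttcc
Nfil3 (chr13:53097383-53097390, plus strand): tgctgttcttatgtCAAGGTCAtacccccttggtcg
Wisp2 (chr2:163651899-163651906, minus strand): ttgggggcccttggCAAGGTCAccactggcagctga

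Lists of genes linked to these receptors and to the cell types of the gland were also searched. No half-site region was nearest to, or within 100 kb of, any of the 13 genes for receptors that bind extended half-sites, to which 7 of all shared regions were nearest (0.112%). The same held for the luminal list, with 9 of its 11 genes in the annotation, for the 8 basal and myoepithelial genes and for the oxidative metabolism list, with 9 of 10 genes in the annotation, to which 6, 3 and 5 shared regions were nearest. The adipocyte list of 10 genes was nearest to 1 of the 291 half-site regions (0.344%) and to 10 of all shared regions (0.1602%). Of these genes, Cebpa had a half-site region 6850 bp downstream of its TSS (chr7:35910873-35911450, scores 171 and 89.7), and another lay 97383 bp from a TSS of Lpl (chr8:71511735-71512317, 223 and 152). Of the 19 genes that the study's text names, none had the nearest TSS within 100 kb of a half-site region. A region within 100 kb of Greb1 was 47448 bp upstream of its TSS and nearer to E2f6 (chr12:16854621-16855659, scores 1146 and 659). That within 100 kb of Pgr, nearest to Gm16485, is described above.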

How the data were processed

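ERα ChIP-seq peak lists of 2 replicates were used. According to the methods and the submitters' processing notes, 51-nt single-end reads were aligned to mm9 with BWA, and peaks were called with MACS in each replicate separately against 1 input at a p-value of 1e-08; tool versions are not given in the sources used here. The deposited score follows the MACS convention of -10 log10 p and was used as the authors gave it, without scaling between lists. The labels and the methods name different library kits.

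Shared regions, motif classes and flanking windows 5 kb away were computed as described above, with sequence from NCBIM37, the assembly of mm9, and GENCODE vM1 (Ensembl 65) start sites. On unplaced sequences, 9 and 7 peaks were left out. Shares were compared by two-sided Fisher's exact tests on regions, with Benjamini-Hochberg adjustment over the 12 main comparisons and within each further family. Regions are not replicates of a condition, neighbouring regions are not independent, and with 2 pools no spread between animals can be estimated. Intervals (exact Clopper-Pearson, and Newcombe for differences) cover counting error only. The members and lists were chosen with earlier results of these data known. Regions named are the 10 with the highest and 3 with the lowest lower score, those nearest to regulated genes, and those at the listed genes, beside examples marked as picked later. Regions at some listed genes, and the counts that need them, are not reported here. Of the regulated genes, 218 of 220 induced and 272 of 273 repressed were in the annotation. The functions were tested on simulated data. Python 3.11.15, numpy 2.4.6, scipy 1.17.1, statsmodels 0.14.6 and matplotlib 3.10.9 were used.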

Additional observations from a re-analysis of the deposited data

How the results depend on the processing

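Of 245 values under an alternative setting, 193 stayed on the same side, which for a test means its direction and its threshold and for a count a change of less than 1.5 times. They include ERE neighbours with 1 region per cluster, which are 0 in both classes by construction. The excess of the half-site over flanking windows and that of another AGGTCA kept direction and call under every alternative. The others are given here, in percentage points for shares, in the order half-site regions minus comparison. Except where the definition is named, their cause was not tested.

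With 200 bp windows the share within 50 bp was 8.23, scores against unmarked regions -7.27 and -10.8, recurrence 4.035, ERE regions within 10 kb -0.294 and the proximal share 0.806, and 0 panel motifs passed. With 600 bp windows the proximal share was 0.1386 and 3 panel motifs passed. At 1e-10 recurrence was 2.15 and ERE neighbours -0.182. At 1e-20 there were 94 regions, with the second arm at 13.3, scores at 7.59 and 5.63 against unmarked and -7.90 and -9.76 against ERE regions, and recurrence at -1.51. With an exact ERE there were 443 regions, with the second arm at 4.27, the replicate 1 score at 0.886, the proximal share at 0.00810 and the 2-mismatch ERE at 6.62, and 2 motifs and 1 arrangement passed. The added regions hold an ERE with 1 mismatch, so they count as lacking a 2-mismatch ERE by definition, and as lacking a 2-mismatch arm where the half-site is an arm of that ERE. With an ERE of up to 2 mismatches there were 121 regions, and recurrence was 5.95. The 9-bp half-site gave 83 regions, 14.99 for position, 13.7 for the second arm, 2.66 for the replicate 1 score, 2.46 for recurrence, -1.87 for the form among hexamers, and 0 motifs. Either pyrimidine gave -0.727 for the second arm, -1.31 for recurrence, 0.598 for the proximal share, 6 motifs and 2 arrangements. There the second arm is not the same measure by definition, because a half-site with C has 1 mismatch in its own arm. Without AP1 in the rule 3 motifs passed, with flanks at 20 kb 4, and with 1 region per cluster 2. With flanks at 2 kb the second arm was at 5.99 and the form among hexamers at 3.14, and with flanks at 20 kb the latter was at 2.44. Without high-copy contexts, an alternative chosen after seeing the data, T before the half-site was at -7.297.

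Leaving out a replicate gave 331 to 442 regions, ERE neighbours from -0.290 to 1.21, the proximal share from -3.62 to -0.884, the form among hexamers from 0.973 to 2.24, and 1 to 2 motifs. The replicate 1 score against unmarked regions was 3.31 without replicate 2. No value was obtained for T before the 9-bp form, for 2-mismatch arms and EREs where the rule bars them, for scores of the replicate left out, for recurrence where a replicate, cluster, flank, TSS or context setting does not enter it, or for the form among hexamers with either pyrimidine and with the context setting. The read depth, which limits how many weak peaks are called, was not used here. No paired analysis was possible because there was 1 condition.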
